A study of Mus musculus with 2 samples.

Results

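The miR-17-92 polycistron is a single transcript of the host gene Mir17hg that carries 6 miRNA hairpins. Its arms were examined in the miRNA of serum extracellular vesicles (EVs), membrane-bound particles shed by cells and carried in blood. The members were chosen by name as 10 mature arms of these hairpins, and all 10 were found in both deposited tables, among 1847 mature mouse miRNAs. The tables also listed miR-19a-5p and miR-19b-1-5p, which complete the 12 arms of the hairpins and are given for comparison. Serum came from male mice that were 7 weeks old when tamoxifen was started, at 100 mg/kg on each of 5 days, and was taken 3 days after the final dose. The iFIRKO mice are labelled Adipoq-CreERT2; Insr flox/flox, so that tamoxifen deletes the insulin receptor gene in cells with an active adiponectin promoter. The controls are labelled WT, whereas the study's methods give them as IR flox/flox, and both groups received tamoxifen. By either account the controls carried no Cre, so the recombinase and the deletion cannot be told apart. Each group was 1 library of serum pooled from several mice, so there was no replicate, no test between genotypes was possible, and each ratio below compares 2 libraries.

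A miRNA hairpin is cut by Drosha in the nucleus and by Dicer in the cytoplasm into a duplex of a 5p and a 3p arm. The strand that is usually kept by Argonaute is called the guide, and the other strand is called the passenger. The guide pairs with target mRNAs through its seed, bases 2 to 8 from the 5′ end. The miR-17-92 polycistron is a target of MYC that promotes cell proliferation and survival, and it is required for normal B cell and lung development. In adipocyte precursors it favours differentiation, and miR-92a is one of its arms that is well known from red cells, endothelium and serum. Of its seed groups, the miR-17 group is known to act on Cdkn1a and E2f1, the miR-18 group on Ctgf and the miR-92 group on Itga5.

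The hairpins lie in exon 2 of Mir17hg on the plus strand of chromosome 14 (GRCm38; gene 115042879 to 115046727, exon 2 from 115043271 to 115046727), a long noncoding RNA gene. From 5′ to 3′ they are Mir17 (115043671 to 115043754), Mir18 (115043851 to 115043946), Mir19a (115044000 to 115044081), Mir20a (115044157 to 115044263), Mir19b-1 (115044305 to 115044391) and Mir92-1 (115044427 to 115044506), within 836 bases. The sequences of all 10 members were matched in RefSeq (GRCm38.p6) and are shown 5′ to 3′ with the seed in capitals, because the seeds sort the guides into groups and because a few bases separate members from their relatives. The guide arms are grouped by seed and the passenger arms follow.
mmu-miR-17-5p: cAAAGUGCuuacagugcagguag
mmu-miR-20a-5p: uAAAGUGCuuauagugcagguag
mmu-miR-18a-5p: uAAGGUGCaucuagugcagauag
mmu-miR-19a-3p: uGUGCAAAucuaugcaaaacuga
mmu-miR-19b-3p: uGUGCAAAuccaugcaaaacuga
mmu-miR-92a-3p: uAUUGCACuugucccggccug
mmu-miR-17-3p: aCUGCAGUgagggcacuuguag
mmu-miR-18a-3p: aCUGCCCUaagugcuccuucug
mmu-miR-20a-3p: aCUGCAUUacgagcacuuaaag
mmu-miR-92a-1-5p: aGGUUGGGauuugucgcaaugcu

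miR-17-5p and miR-20a-5p share a seed and differ at 2 bases (C1U and C12U, positions counted from 1 at the 5′ end). miR-19a-3p and miR-19b-3p differ at 1 base outside the seed (U11C). Relatives from the paralogous X-linked cluster are as close, since miR-106a-5p differs from miR-17-5p at 1 base (U10A), miR-20b-5p from miR-20a-5p at 2 bases (U1C and U10C) and miR-18b-5p from miR-18a-5p at 2 bases (A18U and A20U). How the authors assigned reads between such sequences is not given in the sources used here, so the split between close relatives is uncertain.

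miR-19b-3p and miR-92a-3p are each made by a second hairpin in the paralogous cluster on the minus strand of chromosome X. These hairpins, Mir19b-2 (52741983 to 52742066) and Mir92-2 (52741838 to 52741928), are printed below their counterparts on chromosome 14, with the annotated arms in capitals, because the 3p arms are identical and only the 5p arms tell the hairpins apart.
Mir19b-1: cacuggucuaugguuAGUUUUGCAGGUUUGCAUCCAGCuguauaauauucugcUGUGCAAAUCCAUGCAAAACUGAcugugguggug
Mir19b-2: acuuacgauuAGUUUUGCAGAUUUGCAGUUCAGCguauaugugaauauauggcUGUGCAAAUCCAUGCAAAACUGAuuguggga
Mir92-1: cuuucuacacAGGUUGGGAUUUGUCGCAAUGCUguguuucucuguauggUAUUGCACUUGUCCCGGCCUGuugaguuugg
Mir92-2: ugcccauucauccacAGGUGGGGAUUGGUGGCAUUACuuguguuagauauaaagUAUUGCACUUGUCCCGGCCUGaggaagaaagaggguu

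Values are given as counts recovered from the deposited normalized values and as counts per 1000000 counts of the library (CPM). Depth, the constant recovered from the deposited values, was 3817902 counts in the library labelled control. This was 1.71 times that of the library labelled iFIRKO (2233498 counts). Whether these counts are reads or molecules is not given in the sources used here. Intervals are 95% intervals of counting error only. The lowest value of each table stands for a count under 10, and no member was at it, the lowest member count being 37. Low counts leaned one way between the libraries, since the class with a mean count from 10 to 100 held 1350 miRNAs, of which 1298 were higher in CPM under the iFIRKO label. No miRNA in the tables reads out Insr itself or defines an EV, so neither the genotype labels nor the vesicle origin could be checked against a marker. miR-144-3p, miR-486a-3p, miR-16-2-3p and miR-451a, which were followed up by quantitative RT-PCR, all had ratios below 1 here, from 0.409 to 0.557. The study's text gives them the opposite direction. It also reports that most EV miRNAs were decreased in iFIRKO mice. Here 1627 of the 1847 miRNAs were higher under the iFIRKO label and 220 were lower. Of the 118 miRNAs above a mean count of 1000, however, 70 were lower. The libraries are therefore named by their labels throughout, and an exchange of the labels would turn every ratio below into its reciprocal.

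The first question was how much of each arm the vesicles held. miR-92a-3p, the guide of the last hairpin, was the most abundant member, at 4656 CPM under the control label (17776 counts) and 4977 CPM under the iFIRKO label (11116 counts). It ranked 40 and 36 in abundance among all miRNAs. miR-19b-3p followed with 5892 counts (1543 CPM) and 2330 counts (1043 CPM), in the same order of libraries. These 2 leading arms are the ones that a second hairpin also makes. miR-20a-5p had 4035 counts (1057 CPM) and 1649 counts (738 CPM). miR-17-5p, its seed mate, had 1357 counts (355 CPM) and 614 counts (275 CPM). The last members of the guide set were less abundant, and both were lower in the library labelled iFIRKO. miR-19a-3p had 1017 counts (266 CPM) and 453 counts (203 CPM). miR-18a-5p, the only member of its seed group in the polycistron, had 599 counts (157 CPM) and 261 counts (117 CPM). The order of the 6 guides was the same in both libraries, and each pair of neighbours in it differed beyond counting error in each library.

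Passenger arms were scarce. miR-17-3p had 278 counts (72.8 CPM) and 145 counts (64.9 CPM) and was the only passenger arm with over 100 counts. miR-18a-3p had 73 counts (19.1 CPM) and 52 counts (23.3 CPM). miR-92a-1-5p had 67 counts (17.5 CPM) and 89 counts (39.8 CPM). It was the only member with more recovered counts in the library labelled iFIRKO, despite the lower depth of that library. miR-20a-3p had 49 counts (12.8 CPM) and 37 counts (16.6 CPM). In the library labelled control, miR-18a-3p, miR-92a-1-5p and miR-20a-3p did not differ between neighbours in this order beyond counting error, and in the library labelled iFIRKO the same was true of miR-18a-3p and miR-20a-3p, with miR-92a-1-5p above both. Along the transcript, guide levels were lowest at the Mir18 hairpin and increased with each later hairpin up to Mir92-1 in both libraries. Mature lengths were 21 to 23 bases, so no correction for length was made.

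**Figure D1:**
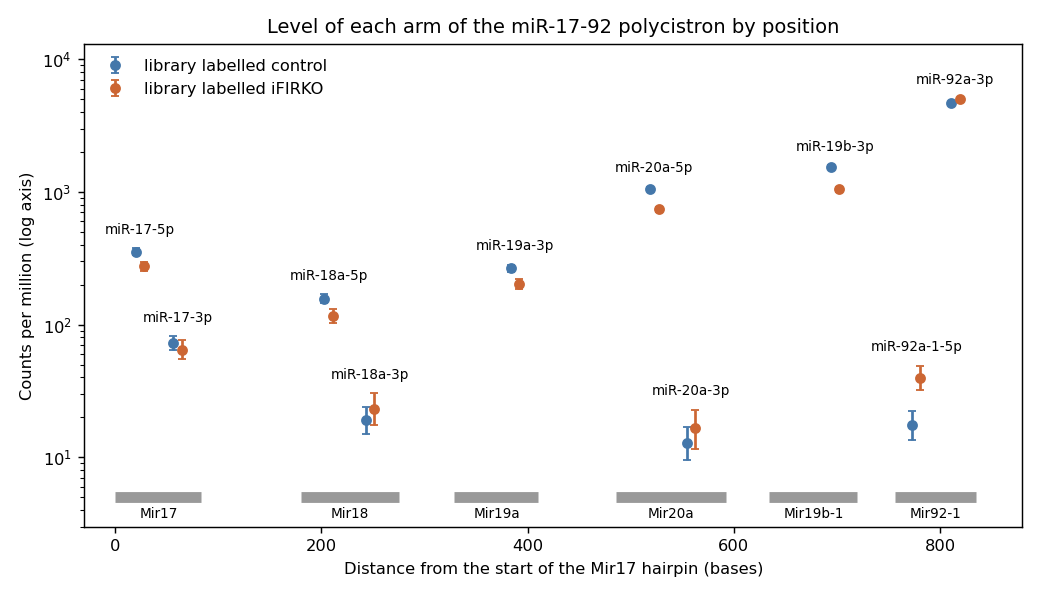
CPM (log axis) of the 10 arms in the library labelled control (blue) and the library labelled iFIRKO (orange) against the distance in bases from the start of the Mir17 hairpin, with grey blocks for the hairpins, points of the libraries set 8 bases apart for legibility, and bars for the 95% interval of counting error. Guide levels run from 157 CPM for miR-18a-5p to 4656 CPM for miR-92a-3p in the library labelled control, and no passenger arm exceeds 72.8 CPM.

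The comparison of the libraries separated miR-92a-3p from the other guides. Each ratio is the CPM under the iFIRKO label over the CPM under the control label, and it was 0.773 for miR-17-5p (95% interval 0.702 to 0.851). It was 0.745 for miR-18a-5p (0.642 to 0.863), 0.761 for miR-19a-3p (0.680 to 0.851) and 0.699 for miR-20a-5p (0.659 to 0.740). miR-19b-3p had the smallest ratio of the members, 0.676 (0.644 to 0.709). All 5 of these guides were therefore lower under the iFIRKO label beyond counting error, as were 6.17% of the 1847 miRNAs. These guides were all above a mean count of 100. There, a ratio below 1, whatever its interval, was found for 21.9% of miRNAs up to 1000 and for 59.3% above it. In all, 0 members were lower by over 1.5-fold on the deposited scale, against 3.03% of all miRNAs. With the median of ratios or miR-148a-3p as the scale 5 were, and with TMM scaling 7 were. These scalings lower the ratio of every miRNA alike, and the share of all miRNAs past the threshold is not given under them. The counts of these 5 guides together had a ratio of 0.703 (0.681 to 0.726), from 3379 to 2376 CPM. miR-92a-3p had a ratio of 1.07 (1.04 to 1.09), on the other side of 1 from the 5 guides that share its transcript. Its direction depended on the scaling. The ratio was 0.918 relative to miR-148a-3p (the reference miRNA of the RT-PCR), 0.892 with the median of ratios and 0.591 with TMM scaling. The other 5 guides stayed below 1 under each of these scalings. The median of ratios, 1.20, left out miRNAs averaging under 100 counts or at the lowest value of either table. Over all 1847 miRNAs the median ratio was 1.84.

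Since a scaling factor cancels within a library, the guides were also compared with each other. The ratio of miR-92a-3p was above that of each other guide, and the ratio of ratios was 0.724 for miR-17-5p against miR-92a-3p (0.655 to 0.799), 0.697 for miR-18a-5p (0.599 to 0.809), 0.712 for miR-19a-3p (0.635 to 0.799), 0.654 for miR-20a-5p (0.614 to 0.696) and 0.632 for miR-19b-3p (0.599 to 0.667). Of the 15 pairs of guides, the interval excluded 1 for all 5 pairs with miR-92a-3p and for 1 of the 10 pairs without it. That pair was miR-17-5p and miR-19b-3p, with a ratio of ratios of 1.14 (1.03 to 1.27). These intervals are not adjusted for the number of pairs. The 5 lower guides were thus close to each other, their ratios lying between 0.676 and 0.773.

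The composition of the polycistron differed accordingly. miR-92a-3p made up 57.1% of the counts of the 10 members under the control label (Wilson, 95%, 56.5 to 57.6) and 66.4% in the library labelled iFIRKO (65.7 to 67.1). The share of miR-19b-3p was 18.9% (18.5 to 19.4) and 13.9% (13.4 to 14.4), and that of miR-20a-5p was 13.0% (12.6 to 13.3) and 9.85% (9.41 to 10.3). Both lower shares had intervals that did not overlap between the libraries. The smaller shares of miR-17-5p (4.36% and 3.67%), miR-19a-3p (3.27% and 2.71%) and miR-18a-5p (1.92% and 1.56%) were also lower. Their intervals did not overlap between the libraries either. These 3 differences rested on the most abundant arms, since without miR-19b-3p and miR-92a-3p in the total the odds ratios were 1.03 (0.926 to 1.15), 1.01 (0.895 to 1.14) and 0.986 (0.844 to 1.15). Summed over the 10 members, the polycistron had 31143 counts (8157 CPM) and 16746 counts (7498 CPM), and their ratio was 0.919 (0.902 to 0.937). The side of 1 depended on the scaling, as the ratio was 1.01 with totals taken without miR-122-5p, the liver miRNA. The sum rested on its most abundant arm, since it was 0.720 (0.698 to 0.743) without miR-92a-3p. Without both arms that chromosome X also encodes, the ratio was 0.755 (0.724 to 0.786). The members are parts of 1 total, so a higher share of one arm lowers the shares of the others.

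The passenger arms had ratios above those of the lower guides, though only the interval of miR-92a-1-5p lay clear of all of theirs. miR-92a-1-5p, the arm opposite miR-92a-3p in its hairpin, had the largest ratio of the members, 2.27 (1.64 to 3.17), which was 1.26 with TMM scaling and then not past 1.5-fold. miR-18a-3p had a ratio of 1.22 (0.836 to 1.76), miR-20a-3p of 1.29 (0.819 to 2.02) and miR-17-3p of 0.892 (0.724 to 1.09), and these 3 intervals included 1. With TMM scaling the ratios of miR-18a-3p and miR-20a-3p were below 1, at 0.674 and 0.714. Of the arms outside the member list, miR-19b-1-5p had 21 and 29 counts, a ratio of 2.36 (1.30 to 4.36), and miR-19a-5p had 20 and 20 counts, a ratio of 1.71 (0.873 to 3.35). The Mir92-2 hairpin on chromosome X could itself be followed only through miR-92a-2-5p, which had 20 and 16 counts, a ratio of 1.37 (0.663 to 2.78). Its interval overlapped that of miR-92a-1-5p. Other arms of the X-linked cluster are given below. For miR-19b-3p the X-linked counterpart is miR-19b-2-5p, which had 49 and 40 counts and a ratio of 1.40 (0.896 to 2.16).

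In counts of members, 5 of the 10 had an interval below 1, which was so for 6.17% of all miRNAs. For 2 of the 10 (miR-92a-3p and miR-92a-1-5p) the interval lay above 1, which was so for 63.0% of all miRNAs. The other 3 members had an interval that held 1, as had the rest of all miRNAs. At the 1.5-fold threshold, 1 member was higher (miR-92a-1-5p), against 66.3% of all miRNAs. The median log2 ratio of the members was -0.27, against 0.88 over all miRNAs. Since ratios depended on abundance in these libraries, each member was also placed in its abundance class. In the class of 302 miRNAs between mean counts of 100 and 1000, whose median ratio was 1.44, a lower ratio than that of miR-18a-5p was found for 12, than that of miR-19a-3p for 15, than that of miR-17-5p for 16 and than that of the passenger arm miR-17-3p for 40. In the class of 118 miRNAs above a mean count of 1000, whose median ratio was 0.952, a ratio lower than that of miR-19b-3p was found for 11 and than that of miR-20a-5p for 15. By the same measure miR-92a-3p stood in the upper part of this class, with 81 of the 118 below it. These placings depend on the class edges, since miR-17-5p and miR-19a-3p had mean counts of 985.5 and 735. In the class above theirs, 30 of the 118 miRNAs had a ratio below that of miR-143-3p, 0.762. Of the 1350 miRNAs between mean counts of 10 and 100, whose median ratio was 2.01, a lower ratio was found for 846 in the case of miR-92a-1-5p, for 165 in the case of miR-20a-3p and for 129 in the case of miR-18a-3p.

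**Figure D2:**
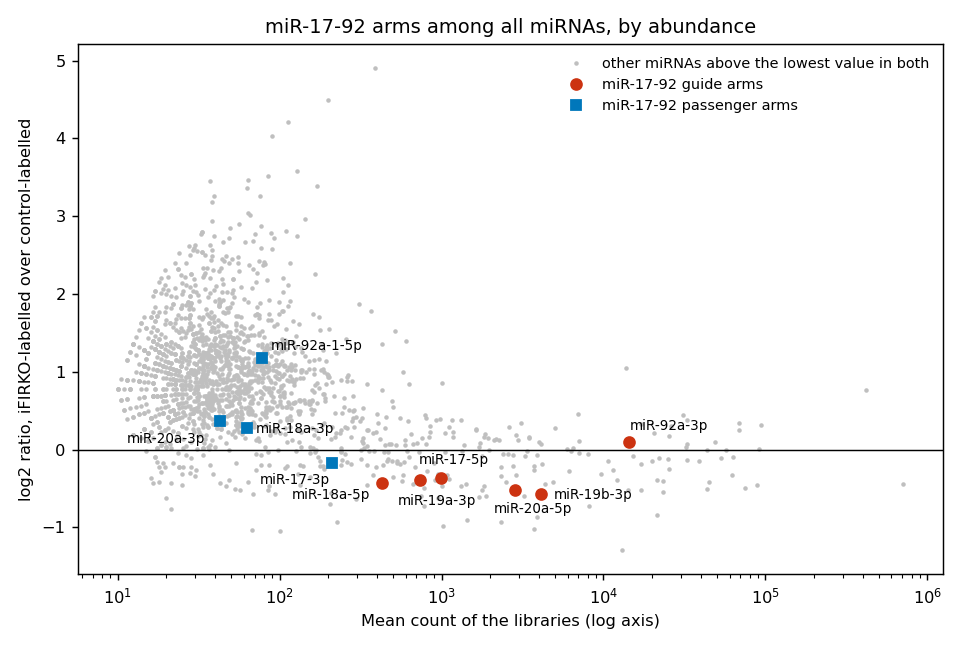
The log2 ratio, labelled iFIRKO over labelled control, against the mean count (log axis) for each miRNA above the lowest value in both libraries (grey), with the miR-17-92 guide arms in red and the passenger arms in blue. The 5 lower guides lie from -0.56 to -0.37, miR-92a-3p lies at 0.10, and 3 of the 4 passenger arms lie above 0, as do most miRNAs of low count.

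The balance of the arms in the vesicles was compared next, as the count of the guide per count of the passenger of the same hairpin. This value does not depend on scaling, and the choice of strand by Argonaute was not measured. Mir17 was the least asymmetric hairpin, with 4.88 counts of miR-17-5p per count of miR-17-3p in the library labelled control (4.29 to 5.57) and 4.23 in the library labelled iFIRKO (3.53 to 5.11). Mir18 had 8.21 (6.43 to 10.6) and 5.02 (3.72 to 6.90). The later hairpins were far more asymmetric. Mir19a had 50.9 (32.7 to 83.6) and 22.6 (14.5 to 37.4), and Mir20a had 82.3 (62.2 to 111) and 44.6 (32.2 to 63.5). For Mir19b-1 and Mir92-1 the value is an upper bound for the hairpin, as their guides also come from chromosome X. It was 281 (183 to 454) and 80.3 (55.8 to 120) for Mir19b-1, and 265 (209 to 343) and 125 (101 to 156) for Mir92-1. The value was lower in the library labelled iFIRKO for all 6 hairpins, and the interval of the difference excluded 1 for 5 of them, Mir17 being the exception (ratio of the arm ratios 0.867, 0.691 to 1.09). For Mir92-1 this ratio was 0.471 (0.337 to 0.654), the passenger being higher while the guide stayed near 1. The passenger arms of Mir18, Mir20a and Mir92-1 and the arms opposite miR-19a-3p and miR-19b-3p all belong to the abundance class in which 1298 of 1350 miRNAs were higher under the iFIRKO label, and the part of that difference in the arm ratios was not tested. The pattern was not particular to the polycistron. In the Mir106b-25 cluster the more abundant arm also had the lower ratio. The values were 0.747 for miR-93-5p against 1.70 for miR-93-3p, 0.705 for miR-25-3p against 1.54 for miR-25-5p, and 0.695 for miR-106b-3p against 0.880 for miR-106b-5p. Arm ratios were not taken over all hairpins.

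**Figure D3:**
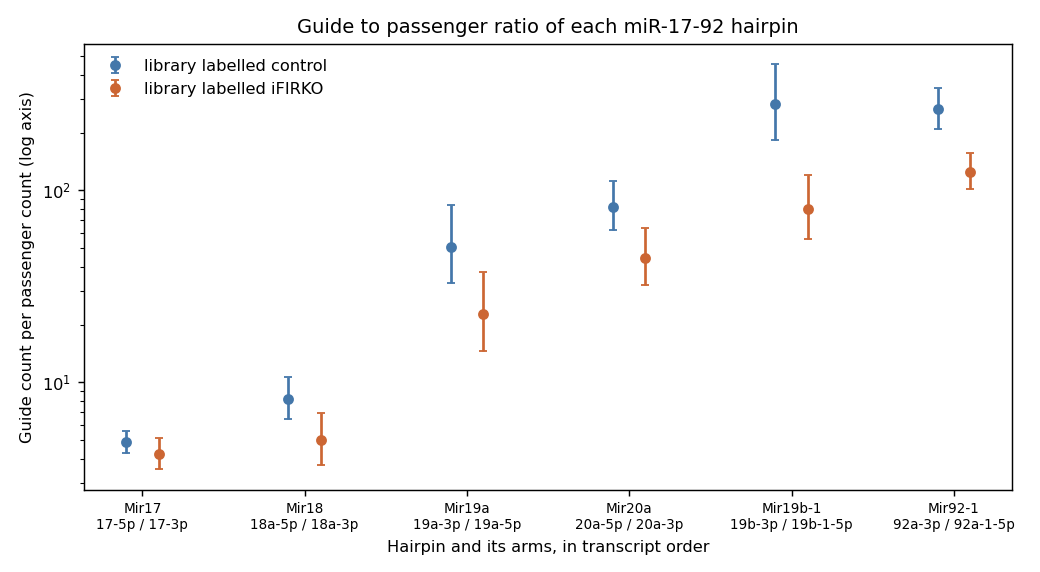
Count of the guide arm per count of the passenger arm (log axis) for each hairpin in transcript order, in the library labelled control (blue) and the library labelled iFIRKO (orange), with bars for the 95% exact interval of counting error. The ratio runs from 4.88 at Mir17 to 281 at Mir19b-1 in the library labelled control and is lower in the library labelled iFIRKO at each of the 6 hairpins.

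Relatives outside the polycistron were set beside the members by seed. In the miR-17 group, miR-17-5p and miR-20a-5p together made up 7.74% of the counts in the library labelled control (7.55 to 7.95) and 7.43% in the library labelled iFIRKO (7.14 to 7.73). Most of this group was miR-93-5p of the Mir106b-25 cluster in Mcm7, with 62704 counts (16424 CPM) and 27414 counts (12274 CPM). Its ratio of 0.747 (0.737 to 0.758) lay among those of the polycistron's guides. The whole group of 7 miRNAs with this seed had a ratio of 0.748 (0.738 to 0.758). miR-106a-5p and miR-20b-5p, the X-linked relatives, had ratios of 0.874 (0.670 to 1.13) and 0.906 (0.788 to 1.04), with intervals that included 1.

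In the miR-92 group the member and its most abundant seed mate went apart. miR-92a-3p made up 22.1% of the group in the library labelled control (21.8 to 22.4) and 30.0% in the library labelled iFIRKO (29.5 to 30.5), an odds ratio of 1.51 (1.47 to 1.56). miR-25-3p, the most abundant of the group, had 61907 counts (16215 CPM) and 25532 counts (11431 CPM), so that its ratio was 0.705 (0.695 to 0.715). miR-92b-3p, which differs from miR-92a-3p at 2 bases within the shared length (U10C and G21C) and is 1 base longer, had 433 and 163 counts and a ratio of 0.643 (0.534 to 0.772). On the deposited scale, miR-25-3p and miR-92b-3p were therefore lower where miR-92a-3p was not, and the difference in odds does not depend on the scaling. miR-32-5p had a ratio of 0.881 (0.734 to 1.05) and miR-363-3p of 1.15 (0.776 to 1.68), with intervals that included 1. miR-367-3p, known from pluripotent cells, had 10 and 24 counts, the first of them at the lower limit of the tables, and a ratio of 4.10 (1.89 to 9.61).

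In the miR-18 group, miR-18a-5p and its X-linked relative miR-18b-5p differed in direction on the deposited scale, though not with TMM scaling, where miR-18b-5p had a ratio of 0.856. miR-18b-5p had 159 counts (41.6 CPM) and 144 counts (64.5 CPM), and its deposited ratio was 1.55 (1.23 to 1.95). Accordingly, miR-18a-5p made up 79.0% of the pair in the library labelled control (76.0 to 81.8) and 64.4% in the library labelled iFIRKO (59.7 to 69.0). The miR-19 seed was carried by miR-19a-3p and miR-19b-3p alone, which together had 6909 and 2783 counts and a ratio of 0.689 (0.659 to 0.720).

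By cluster, the 10 listed arms of the X-linked Mir106a-363 cluster were scarce, with 312 and 362 CPM in all against 8157 and 7498 CPM for the 10 members. Their median log2 ratio was 0.56, with 5 intervals above 1 (63.0% of all miRNAs) and 0 below (6.17%), although with TMM scaling only 3 of the 10 had a ratio above 1. The 6 arms of the Mir106b-25 cluster had 33646 and 24586 CPM and a summed ratio of 0.731 (0.723 to 0.738), and 4 intervals lay below 1 and 2 above, beside the same shares of all miRNAs. The 2 higher arms were miR-93-3p (1.70, 1.48 to 1.95) and miR-25-5p (1.54, 1.20 to 1.97), the scarcer arms of their hairpins, and both fell below 1 with TMM scaling (0.941 and 0.852).

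**Figure D4:**
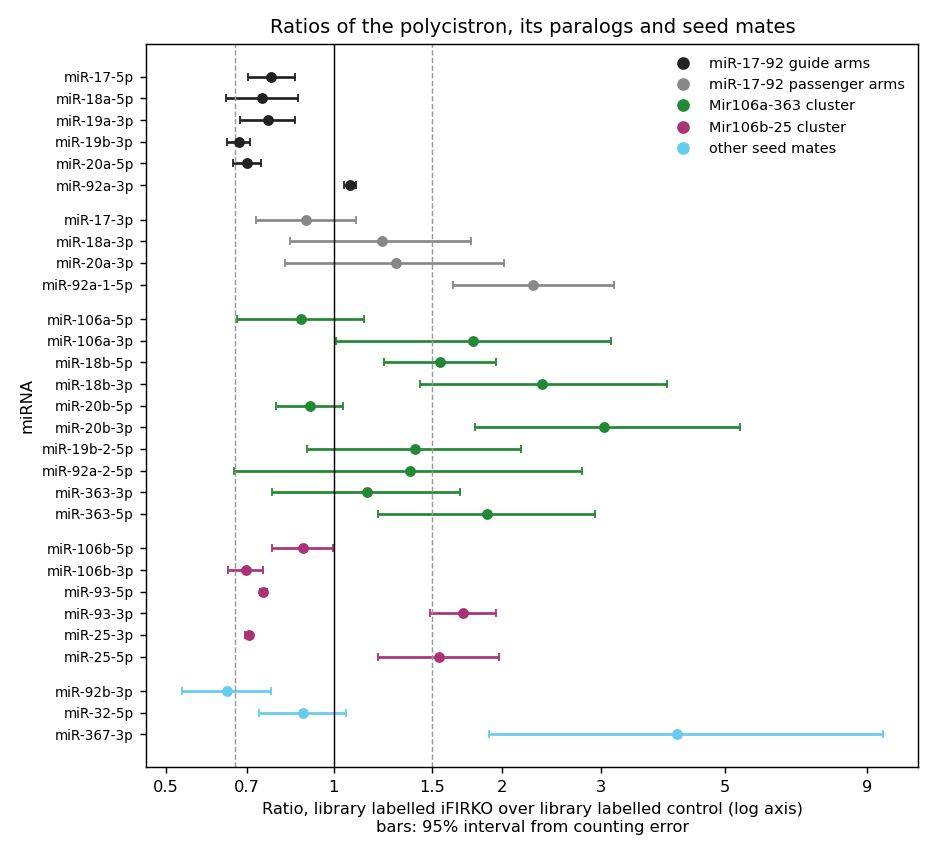
Ratio of CPM, labelled iFIRKO over labelled control (log axis), for the miR-17-92 guide and passenger arms, the arms of the paralogous clusters and other miRNAs with the seed of miR-92a-3p, with bars for the 95% interval of counting error, a solid line at 1 and dashed lines at 1.5-fold. The 5 guides other than miR-92a-3p lie between 0.676 and 0.773 beside miR-93-5p and miR-25-3p, and miR-92a-3p lies at 1.07.

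Markers of cells that shed vesicles into serum moved between the libraries as well. All 7 erythroid miRNAs, among them miR-451a, were lower in the library labelled iFIRKO, with ratios from 0.409 to 0.760, and together they made up 4.75% and 3.22% of the libraries. For comparison, 11.9% of all miRNAs were lower, and 59.3% of those above a mean count of 1000. Most of the erythroid, platelet and leukocyte miRNAs listed here were above that count. The list of 3 platelet miRNAs held miR-126a-3p, miR-223-3p and miR-24-3p, which are not specific to platelets. Their ratios ran from 0.710 to 0.845 (5.89% and 4.50% together). The 5 leukocyte miRNAs had ratios from 0.834 to 0.964 (3.39% and 3.14%). The 4 liver miRNAs, among them miR-122-5p, had ratios from 1.35 to 1.71 (0.748 to 0.944 with TMM scaling) and together made up 12.1% and 20.2%. Of the 5 miRNAs known from adipocytes, 1 had an interval above 1 (miR-378a-3p, 1.21, 1.17 to 1.26), 2 had an interval below 1 and 2 had an interval that held 1. Over all miRNAs, 63.0% had an interval above 1 and 6.17% an interval below 1. No marker in these lists was at the lowest value of either table. With TMM scaling all 5 adipocyte miRNAs had ratios below 1 (miR-378a-3p 0.671), and with totals without miR-122-5p, 3 of the 5 leukocyte miRNAs had ratios above 1. Of the 5 lower guides, miR-18a-5p, miR-19b-3p and miR-20a-5p lay within the range of the erythroid list and miR-17-5p, miR-18a-5p and miR-19a-3p within that of the platelet list, and the part of each cell type in the result was not tested. In pooled serum, fewer vesicles from a cell type and less of a miRNA per vesicle cannot be told apart.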

How the data were processed

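Small RNA of serum EVs was measured in 1 library labelled control and 1 labelled iFIRKO. The authors made QIAseq miRNA libraries from pooled serum, sequenced them on a NextSeq500 and processed the reads with Qiagen's GeneGlobe service. The submitters' processing notes name the build mm10, and the aligner, miRNA release and use of molecular identifiers are not given in the sources used here. The deposited normalized signal equals a miRNA's count over a constant of its library, because 100% of the values were whole multiples of 1/3817902 (control) or 1/2233498 (iFIRKO) within 0.01 of a count. These constants were taken as depth. Coordinates are from GENCODE and RefSeq (GRCm38, the assembly of mm10).

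Ratios were taken on the deposited scale with no pseudocount. Intervals are exact Clopper-Pearson (ratios, arm ratios), exact Poisson (CPM), Wilson (shares) and exact conditional (odds ratios, ratios of ratios), from scipy 1.17.1. Of these, only the intervals of the ratios of single miRNAs were tested on simulated data. edgeR's quasi-likelihood test has no residual degrees of freedom with 1 library per group and was not fitted. edgeR 4.0.16 in R 4.3.3 gave only the TMM factors of an alternative. Other alternatives changed the scaling, pseudocount, lowest values, threshold, count filter or members summed. For the median of ratios, miRNAs averaging under 100 counts or at the lowest value of either table were left out. The miRNAs named by rule were the 10 members, the other arms of their hairpins, the paralogous clusters, the seed mates and miR-148a-3p, beside marker miRNAs and the 4 followed up by RT-PCR. No miRNAs were ranked by likeness to the members, as each has a single ratio. The members, lists and thresholds were chosen with earlier results of these data known.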

Additional observations from a re-analysis of the deposited data

How the results depend on the processing

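No paired analysis was possible because there was 1 library per group, and for the same reason no library could be left out in turn. Each scaling multiplies all ratios alike, and the log2 ratios were lowered by 0.26 with the median of ratios, by 0.22 with miR-148a-3p and by 0.85 with TMM scaling. The ratio of miR-92a-3p then fell below 1, to 0.892, 0.918 and 0.591. The summed ratio of the members was 0.767, 0.789 and 0.508 under these 3 scalings in the same order, 0.755 without miR-19b-3p and miR-92a-3p, and 0.720 without the most abundant member. It was 1.01 with totals without miR-122-5p, an alternative chosen after seeing the data, so its side of 1 was not stable. The median log2 ratio of the members was -0.53 with the median of ratios and -1.12 with TMM scaling. The members over 1.5-fold lower numbered 5, 5 and 7 under the 3 scalings instead of 0, the first 2 because all 5 lower guides lay close to the threshold. The share of all miRNAs past 1.5-fold is not given under these scalings. The members over 1.5-fold higher numbered 0 with TMM scaling and 0 at a mean count of at least 100, which leaves out miR-92a-1-5p. The odds ratios for the shares of miR-17-5p and miR-19a-3p were 1.03 and 1.01 when miR-19b-3p and miR-92a-3p were left out of the total, and that of miR-18a-5p was 0.986, so the lower shares of these arms rested on those 2 arms. The 5 lower guides stayed below 1 under each scaling. The pseudocount, the lowest values at 10 counts, equal totals, the 2-fold threshold and a mean count of at least 10 moved no ratio past its counting error and no count of members by over 1.5 times. Counting error is large for the passenger arms, with 37 to 89 counts for 3 of the 4.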

Other observations

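Base composition differed among the guides. miR-92a-3p had the highest GC content of the 6, 57.1%, and a ratio of 1.07, while the others had 34.8% (miR-19a-3p), 39.1% (miR-19b-3p and miR-20a-5p), 43.5% (miR-18a-5p) and 47.8% (miR-17-5p). The seed mate with the highest GC content, miR-92b-3p (63.6%), had a ratio of 0.643, and miR-93-5p (52.2%) had a ratio of 0.747. Other relatives of high GC content lay on both sides of 1, with 1.70 for miR-93-3p (59.1%), 1.54 for miR-25-5p (59.1%) and 0.695 for miR-106b-3p (63.6%). These values are a description across a few miRNAs, and a link between GC content and ratio was not tested.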
